A study of Mus musculus with 6 samples.

Results

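The lineage genes described here are 10 genes of the osteoblast and chondrocyte programs, taken by symbol from the 29955 genes of the expression table: Runx1, Runx2, Sp7, Alpl, Spp1, Ibsp, Mgp, Acan, Comp and Tnfrsf11b. All 10 were found. They were followed in mouse embryonic fibroblasts (MEFs), cells grown from mid-gestation embryos, with and without Rnf40. Rnf40 encodes a subunit of the E3 ligase complex that places ubiquitin on histone H2B. RNA-seq was available for 3 libraries of Rnf40+/+ MEFs and 3 libraries of Rnf40-/- MEFs, all at passage 3. The Rnf40-/- MEFs carried loxP sites around a part of both Rnf40 alleles and a tamoxifen-inducible Cre (CreERT2) in the ubiquitously expressed Rosa26 locus, and had received 250 nM 4-hydroxytamoxifen (4-OHT) for 5 days followed by 3 days without it. The sources used here do not say whether the Rnf40+/+ MEFs carried CreERT2 or received 4-OHT, so the deletion and the treatment cannot be told apart. They also do not say whether the libraries of a genotype came from separate embryos, so the p values measure the spread between these libraries, which may be technical. Rnf40 itself had 1190 ± 91.2 normalized counts in Rnf40+/+ and 482 ± 39.9 in Rnf40-/- MEFs (SD, n = 3 each), or 40.5% of the Rnf40+/+ level. This count is for the whole gene, with exons outside the loxP sites, so it does not measure how complete the deletion was. The study reports from western blots that RNF40 and the ubiquitin on H2B were effectively lost.

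Osteoblasts, which build bone, and chondrocytes, which build cartilage, both arise from mesenchymal cells related to fibroblasts. RUNX2 and SP7 (osterix) are the transcription factors that commit cells to the osteoblast fate, and SOX9 has that role in chondrocytes. The matrix these cells secrete is mineralized or kept free of mineral by a balance of phosphate-releasing enzymes, acidic phosphoproteins and inhibitors of calcification, while osteoprotegerin, the product of Tnfrsf11b, limits the formation of bone-resorbing osteoclasts. In the MEFs the lineage genes differed widely in level. Among the lineage genes, Spp1, Mgp, Tnfrsf11b, Runx1 and Runx2 had at least 437 normalized counts in every library, whereas Sp7, Alpl, Ibsp, Acan and Comp, among them the genes that best define a mature osteoblast or chondrocyte, stayed below 20 normalized counts in every library. A normalized count is the number of reads on a gene divided by the size factor of its library. The libraries held between 17053436 and 26344170 reads on genes, and 3 reads, taken as the limit of detection, corresponded to 2.40 to 3.58 normalized counts.

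Of the 10 lineage genes, 7 had enough reads to be tested. In Rnf40-/- MEFs, Runx1, Runx2, Sp7, Mgp and Tnfrsf11b were lower and Spp1 was higher, each with an adjusted p under 0.05, while Comp did not pass. The test was limma on log2(normalized count + 1), with Benjamini-Hochberg adjustment over all 16378 genes tested. Of these, 47.4% were called, 23.3% as higher and 24.1% as lower in Rnf40-/- MEFs. Each count of genes called by this test, here and below, is to be read against these shares. For 6 of the 7 genes the 3 Rnf40-/- values did not overlap the 3 Rnf40+/+ values, 5 of them lower and 1 higher. The same held for 56.5% of all genes tested, 28.7% lower and 27.8% higher. Sp7 reached the number of reads needed for the test through its Rnf40+/+ libraries alone and so had to differ to be tested at all. It is among the 5 lower genes in both counts. Across the 7 genes, Sp7 among them, the log2 fold change had a median of -0.45, against -0.0035 over all genes tested. The lineage genes were chosen with earlier results of these data known, so this contrast adds no support for a shift. The stricter criteria of the study are a mean above 15, an unadjusted p under 0.05 and a log2 fold change beyond 1 in either direction. They were applied here to the p and log2 fold change from limma, so the calls can differ from those of the study. By them Tnfrsf11b was the lineage gene called, among 5.7% of all genes called as lower and 4.25% as higher. As the libraries hold the RNA of whole cultures, fewer cells of a type and less RNA per cell cannot be told apart for any of these differences.

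**Figure D1:**
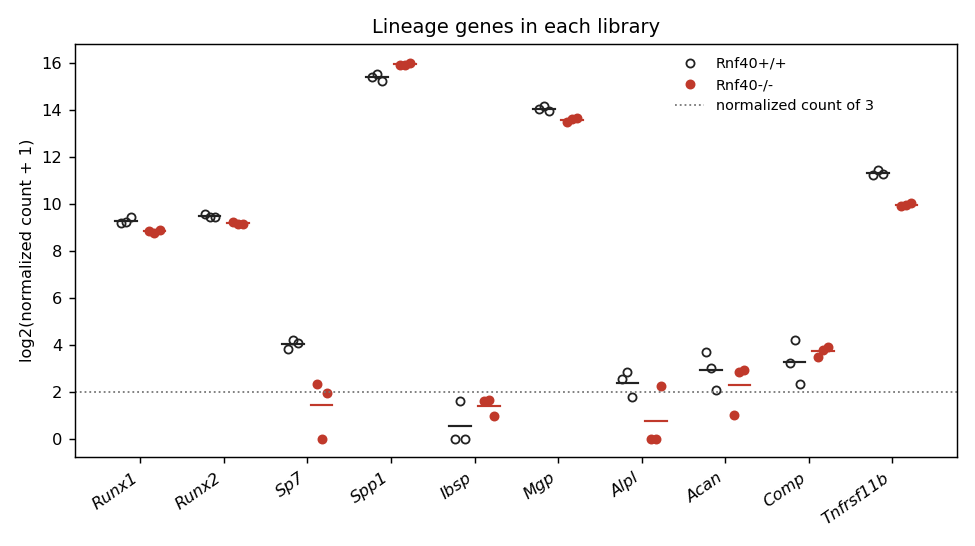
Each point is a library and each short line the mean of 3, on a scale of log2(normalized count + 1) for the 10 lineage genes, with Rnf40+/+ as open black and Rnf40-/- as filled red circles. Spp1 lies above its Rnf40+/+ values in all 3 Rnf40-/- libraries, Runx1, Runx2, Sp7, Mgp and Tnfrsf11b lie below, and the points of Ibsp, Alpl, Acan and Comp overlap between genotypes. The dotted line marks a normalized count of 3. Ibsp lies below it, Alpl on both sides of it, and Acan and Comp mostly above it.

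**Figure D2:**
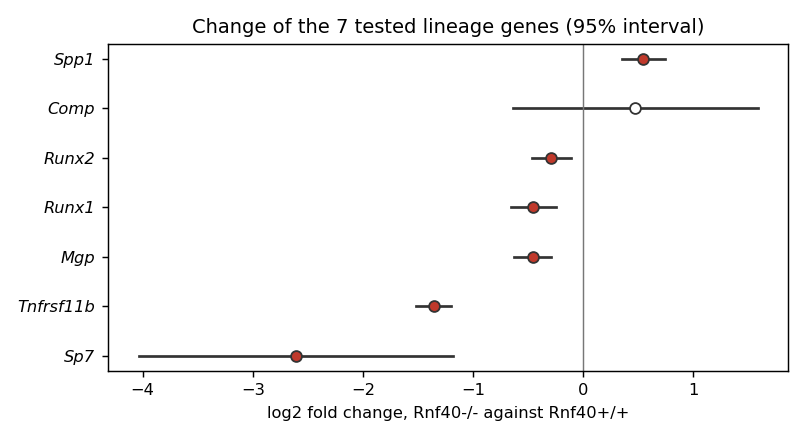
Log2 fold change of the 7 tested lineage genes in Rnf40-/- against Rnf40+/+ MEFs, with bars for the 95% interval from limma and red points for an adjusted p under 0.05. Sp7 at -2.61 and Tnfrsf11b at -1.36 lie farthest from 0, and the interval of Comp, from -0.64 to 1.59, spans it.

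Runx1 and Runx2 encode DNA-binding RUNX factors, which act as partners of the CBFB protein. Runx1 is best known from blood formation and is also used in early skeletal cells. Runx1 (ENSMUSG00000022952, minus strand of chromosome 16 of mm9, 92601712 to 92826311) had 590.0, 599 and 700.3 normalized counts in Rnf40+/+ MEFs and 464, 437 and 476 in Rnf40-/- MEFs. The highest Rnf40-/- value was thus below the lowest Rnf40+/+ value. The means were 630 ± 61.4 and 459 ± 19.8 (SD, n = 3 each), with log2 fold change -0.45 ± 0.09 (SE) and an adjusted p of 0.00175 by limma. Runx2 (ENSMUSG00000039153, minus strand of chromosome 17, 44632936 to 44951746) had 761, 689 and 691 normalized counts in Rnf40+/+ and 608, 572 and 575 in Rnf40-/- libraries. Its values did not overlap either, but the distance was smaller, from 714 ± 40.8 to 585 ± 19.8 (SD, n = 3 each), with log2 fold change -0.29 ± 0.08 (SE) and an adjusted p of 0.0114 by limma. Runx1 kept 72.9% and Runx2 82.0% of its Rnf40+/+ level. Each gene overlaps an annotated RNA of the other strand, over 1.36% of the exons of Runx1 and 5.87% of those of Runx2, and whether strand was used in counting is not given in the sources used here. A second annotated Runx2 gene on the same strand shares 28.7% of the exon length of Runx2, so how its reads were split is uncertain.

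The distal promoters of Runx1 and Runx2 and a promoter of Spp1 hold the letters that RUNX factors recognize, and are shown for that reason from 250 bases before to 50 bases after the transcription start, 5′ to 3′ on the strand of the gene, with every match to the RUNX core letters in capitals. These letters are ACCACA and ACCGCA, which read TGTGGT and TGCGGT where they lie on the opposite strand. The sequences come from RefSeq (GRCm38.p6), and each was found once, letter for letter, in the same chromosome of mm9. They lie at chr16:92826270-92826569 (minus strand), chr17:44951527-44951826 (minus strand) and chr5:104863880-104864179 (plus strand) of mm9.
Runx1: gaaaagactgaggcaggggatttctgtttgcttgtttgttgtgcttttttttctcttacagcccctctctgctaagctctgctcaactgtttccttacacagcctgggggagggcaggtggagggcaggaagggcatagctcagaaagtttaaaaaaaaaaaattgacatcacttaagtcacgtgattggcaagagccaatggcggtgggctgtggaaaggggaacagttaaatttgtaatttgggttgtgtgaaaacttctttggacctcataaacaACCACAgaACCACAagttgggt
Runx2: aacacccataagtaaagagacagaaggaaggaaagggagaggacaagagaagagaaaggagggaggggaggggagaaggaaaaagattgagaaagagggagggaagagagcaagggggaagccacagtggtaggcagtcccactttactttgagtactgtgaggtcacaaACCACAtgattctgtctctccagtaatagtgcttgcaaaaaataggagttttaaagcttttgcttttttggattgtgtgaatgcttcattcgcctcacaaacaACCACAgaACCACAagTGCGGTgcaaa
Spp1: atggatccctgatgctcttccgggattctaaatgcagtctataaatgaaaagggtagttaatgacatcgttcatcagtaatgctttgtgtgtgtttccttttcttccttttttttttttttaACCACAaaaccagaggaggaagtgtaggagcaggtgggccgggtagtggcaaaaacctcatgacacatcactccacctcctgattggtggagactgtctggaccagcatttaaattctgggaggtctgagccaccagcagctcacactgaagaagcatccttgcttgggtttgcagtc
Runx1 has ACCACA at 28 and 36 bases after the start. Runx2 has the same spaced pair at 23 and 31 bases after the start, then TGCGGT at 39, and a further ACCACA 80 bases before the start. Spp1 has a single ACCACA, 128 bases before the start. Of 32851 promoters of this length, 22.4% held at least 1 of these motifs, 2.86% at least 2 and 0.289% at least 3. Promoters were matched for 6 of the 10 lineage genes, and those of Alpl, Ibsp and Acan, the second promoter of Runx1 and the second of Spp1 held none of the motifs. Sp7, Mgp, Comp and Tnfrsf11b had no match. A match is a description of the letters and not a measured binding site.

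Per length of exon, the levels of the 2 genes were close. Runx1 had 3.87 ± 0.35 and Runx2 3.87 ± 0.31 reads per kilobase of exon, scaled to the total of reads on genes (RPKM), in Rnf40+/+ MEFs, so that their order is not defined, and 3.08 ± 0.0987 and 3.46 ± 0.12 in Rnf40-/- MEFs (SD, n = 3 each). Within single libraries the ratio of Runx1 to Runx2 per length was 0.88, 0.98 and 1.15 in Rnf40+/+ and 0.87, 0.87 and 0.94 in Rnf40-/- MEFs. These ranges overlap, and the exact two-sided permutation test gave p = 0.2. Of the partners, Runx3, the remaining RUNX factor, had 97.9, 91.8 and 107.8 normalized counts in Rnf40+/+ and 51.0, 31.3 and 41.5 in Rnf40-/- libraries. It fell by 1.27 ± 0.22 (SE) in log2 units, at an adjusted p of 0.00053 by limma. Cbfb had 1926, 1802 and 1900 normalized counts in Rnf40+/+ and 1755, 1722 and 1731 in Rnf40-/- MEFs and did not pass (log2 fold change -0.11, adjusted p = 0.165 from limma).

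Sp7 encodes osterix, which acts downstream of RUNX2 in osteoblasts. Sp7 (ENSMUSG00000060284, minus strand of chromosome 15, 102187040 to 102197285) had 11, 17 and 20 reads in Rnf40+/+ MEFs and 4, 0 and 3 in Rnf40-/- MEFs, or 13.1, 17.3 and 16.0 against 4.08, 0 and 2.83 normalized counts. Every Rnf40+/+ library was above every Rnf40-/- library, although no library had more than 20 reads. By limma the log2 fold change came to -2.61 ± 0.66 (SE) at an adjusted p of 0.00608. Because the counts are low the fitted value follows the pseudocount, from -3.85 with 0.1 to -1.06 with 10 in place of 1. The gene was called with each of them. As it passed the filter on reads through the Rnf40+/+ libraries alone, its p value and these calls add no support for a difference. In normalized counts the means were 15.5 ± 2.14 and 2.30 ± 2.09 (SD, n = 3 each), which leaves 14.9% of the mean in Rnf40+/+ MEFs.

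Other transcription factors of the osteoblast program, where tested, were also lower or did not pass. Of 9 listed genes 7 were tested, and 5 fell and 2 did not pass. Dlx3 and Dlx6 were too low to test. Dlx3 had 1, 1 and 7 reads in Rnf40+/+ and 8, 7 and 10 in Rnf40-/- libraries. Dlx6 had 7, 12 and 7 reads in Rnf40+/+ and 5, 0 and 4 in Rnf40-/- libraries. Atf4, which drives amino acid supply for collagen synthesis in osteoblasts, went from 7388 ± 178 to 3795 ± 103 normalized counts (SD, n = 3 each), with log2 fold change -0.96 ± 0.06 (SE) and an adjusted p of 1.89e-07 by limma. Dlx5, a homeobox activator of the osteoblast program, went from 44.4 ± 11.0 to 19.1 ± 7.32 (log2 fold change -1.21, adjusted p = 0.00916 from limma). Twist2 and Twist1, which hold back osteoblast maturation, are named here after their values were seen. Twist2 fell by 0.49 and Twist1 by 0.23 on the log2 scale, and the call of Twist1 was lost without Rnf40-/- replicate 1 (-0.24, adjusted p = 0.0584 from limma) or Rnf40-/- replicate 3 (-0.18, adjusted p = 0.0871 from limma).

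Spp1 and Ibsp encode osteopontin and bone sialoprotein, 2 acidic secreted phosphoproteins of the SIBLING family. Both bind integrins and mineral, and their genes lie in the same cluster, with Mepe between them. Osteopontin is also made by fibroblasts and macrophages. Spp1 (ENSMUSG00000029304, plus strand of chromosome 5, 104864137 to 104870069) had 43873, 47523 and 39357 normalized counts in Rnf40+/+ and 62105, 61759.8 and 66706 in Rnf40-/- libraries. It was thus higher in each Rnf40-/- library than in any Rnf40+/+ library. The means were 43584 ± 4091 and 63524 ± 2762 (SD, n = 3 each), a 1.46-fold difference and, with log2 fold change 0.55 ± 0.09 (SE) and an adjusted p of 0.000366 by limma. Spp1 took between 0.187% and 0.224% of all reads on genes in Rnf40+/+ and between 0.325% and 0.345% in Rnf40-/- libraries. Per length of exon it ranked 20 among 21123 genes in Rnf40+/+ MEFs and 4 in Rnf40-/- MEFs.

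The neighbours of Spp1 in the cluster were too low to test or did not pass. Ibsp (ENSMUSG00000029306, plus strand of chromosome 5, 104728190 to 104740488) had 0, 2 and 0 reads in Rnf40+/+ and 2, 2 and 1 in Rnf40-/- libraries, below the limit of detection throughout, and was not tested. Dspp, Dmp1 and Mepe, the other SIBLING genes of the cluster, had at most 4 reads in any library. Pkd2, a widely expressed gene just beyond Spp1, had 3825 ± 218 and 3782 ± 200.2 normalized counts (SD, n = 3 each, log2 fold change -0.02, adjusted p = 0.863 from limma). Sparcl1, at the other end, did not pass (log2 fold change 0.21, adjusted p = 0.496 from limma). Since macrophages and osteoclasts also make osteopontin, their markers are given beside it. Of 8 such genes, 7 were tested: Ptprc rose (62.6 ± 14.8 against 160.3 ± 9.38 normalized counts, SD, n = 3 each), Mmp9 and Ctsk fell, and 4 did not pass, among them Csf1r at 371 ± 72.5 and 317 ± 8.04. None of the 8 was at 0 in all libraries, and their summed level was 4708 to 5867 normalized counts in Rnf40+/+ and 3732 to 3916 in Rnf40-/- libraries. Most of this was Ctsk, which fibroblasts also make, and without it the sums overlapped, at 884 to 1308 and 975 to 1026 normalized counts. The part of such cells in the difference of Spp1 was not tested.

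Mgp encodes matrix Gla protein, a small secreted inhibitor of calcification in cartilage and vessel walls. Mgp (ENSMUSG00000030218, minus strand of chromosome 6, 136820957 to 136824326) had 16792, 18393 and 15929 normalized counts in Rnf40+/+ and 11441, 12770.0 and 13006 in Rnf40-/- libraries. Its values did not overlap, with 72.8% of the Rnf40+/+ level left. The means were 17038 ± 1250.5 and 12406 ± 844 (SD, n = 3 each), with log2 fold change -0.46 ± 0.08 (SE) and an adjusted p of 0.00047 by limma.

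Spp1 and Mgp changed in opposite directions, so their ratio differed between genotypes. In normalized counts, which are not scaled to length, Spp1 was above Mgp in every library. The values that follow are per length of exon. In Rnf40+/+ MEFs, Spp1 had 1268 ± 118 and Mgp 1365 ± 93.3 RPKM, values that overlap between libraries. In Rnf40-/- MEFs Spp1 had 2015 ± 66.3 and Mgp 1085 ± 72.6 RPKM (SD, n = 3 each). The ratio of Spp1 to Mgp per length was 0.95, 0.94 and 0.90 in the single Rnf40+/+ libraries and 1.97, 1.75 and 1.86 in Rnf40-/- MEFs. The genotypes did not overlap, and the exact two-sided permutation test gave p = 0.1, the smallest value that 3 libraries against 3 allow. Since each gene alone already separated the genotypes, in opposite directions, this outcome was fixed and is no further test.

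Matrix Gla protein needs vitamin K-dependent carboxylation to work. The list for this step held 3 of its enzymes and Gas6, a further substrate. Of these 4 genes, 3 were called as lower and 1 did not pass. Ggcx, the carboxylase, went from 857 ± 45.0 to 642 ± 61.8 normalized counts (SD, n = 3 each), with log2 fold change -0.42 ± 0.09 (SE) and an adjusted p of 0.00208 by limma. Gas6, another vitamin K-dependent secreted protein, fell by 0.39 in log2 units (limma, adjusted p = 0.00501). Vkorc1l1, a vitamin K reductase, was at -0.30 (adjusted p = 0.049 from limma), a call that was lost under 5 of the 6 fits without 1 library, all but the fit without Rnf40+/+ replicate 2 (adjusted p from 0.0627 to 0.133), and under 9 of the other alternatives, among them the DESeq2 Wald test (adjusted p = 0.107) and edgeR (adjusted p = 0.0618). Its main homologue Vkorc1 did not pass (-0.05, adjusted p = 0.745 from limma).

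Alpl encodes the alkaline phosphatase that frees phosphate for mineral by splitting pyrophosphate, and is the classical enzyme marker of osteoblasts. Alpl (ENSMUSG00000028766, minus strand of chromosome 4, 137297648 to 137352299) had 4, 6 and 3 reads in Rnf40+/+ and 0, 0 and 4 in Rnf40-/- libraries. The groups overlap and the gene was too low for the test. When every gene with a read was kept in the test, it did not pass (adjusted p = 0.0832 from limma). Of 8 other genes listed for mineralization 7 were tested: 2 fell, 1 rose and 4 did not pass. Ahsg, with at most 2 reads in a library, was not tested. Ank, which exports pyrophosphate, went from 5223 ± 835 to 3359 ± 121 normalized counts, or log2 fold change -0.62 (SD, n = 3 each, adjusted p = 0.000321 from limma). The sodium-phosphate importers changed in opposite directions. Slc20a1 fell from 3585 ± 449.6 to 2421 ± 56.5 (log2 fold change -0.56, adjusted p = 0.000174 from limma) and Slc20a2 rose from 2296 ± 199 to 2957 ± 160.0 (log2 fold change 0.37, adjusted p = 0.00176 from limma). Enpp1, which makes pyrophosphate, did not pass (-0.13, adjusted p = 0.423 from limma).

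Tnfrsf11b showed the largest difference among the lineage genes with many reads. It encodes osteoprotegerin, a soluble decoy receptor that binds RANKL (Tnfsf11) and so keeps it from its receptor RANK (Tnfrsf11a) on osteoclast precursors. Tnfrsf11b (ENSMUSG00000063727, minus strand of chromosome 15, 54082174 to 54110039) had 2422, 2779 and 2494 normalized counts in Rnf40+/+ and 961, 995 and 1046 in Rnf40-/- libraries. Every Rnf40+/+ library was far above every Rnf40-/- library. The means were 2565 ± 189 and 1000.4 ± 43.1 (SD, n = 3 each), with 39.0% left, with log2 fold change -1.36 ± 0.07 (SE) and an adjusted p of 7.15e-08 by limma.

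The ligand of osteoprotegerin was not called. Tnfsf11 had 111, 121 and 114 normalized counts in Rnf40+/+ and 104, 130.5 and 109.5 in Rnf40-/- libraries, which overlap (log2 fold change -0.02, standard error 0.15, adjusted p = 0.941 from limma). Per length of exon, the libraries held 17.3, 18.2 and 17.3 times as much Tnfrsf11b as Tnfsf11 in Rnf40+/+ MEFs and 7.33, 6.05 and 7.58 times in Rnf40-/- MEFs. The decoy receptor was thus in excess over its ligand at the RNA level in all 6 libraries, by less in each Rnf40-/- library (exact two-sided permutation p = 0.1, the smallest the design allows). With the values of Tnfsf11 overlapping, this ratio restates the fall of Tnfrsf11b and is no separate test. Tnfrsf11a, the signalling receptor, had 206 ± 16.3 and 142 ± 22.8 normalized counts (SD, n = 3 each) and fell by 0.54 in log2 units (limma, adjusted p = 0.00914). Csf1, the growth factor osteoclast precursors need beside RANKL, rose from 10599 ± 337 to 12755 ± 199 (log2 fold change 0.27, adjusted p = 0.00361 from limma).

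**Figure D3:**
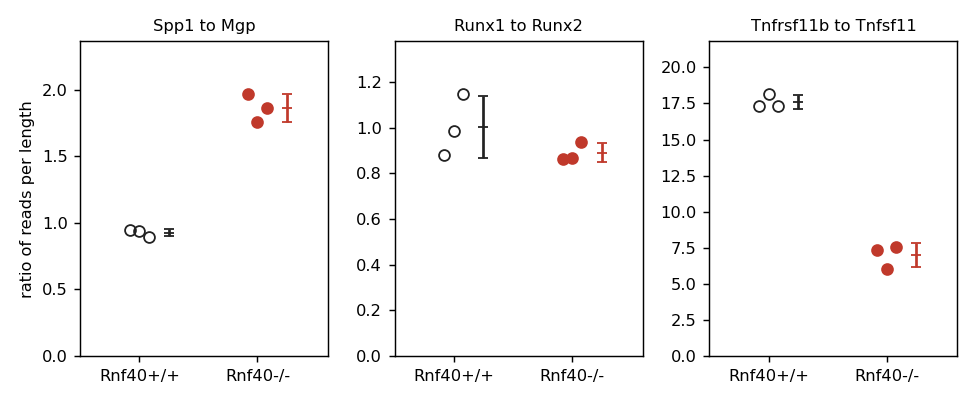
Ratios of reads per exon length within each library, with points for libraries and bars for the mean ± SD of 3. The mean of Spp1 to Mgp is 0.93 in Rnf40+/+ and 1.86 in Rnf40-/- MEFs and that of Tnfrsf11b to Tnfsf11 is 17.6 and 6.99, each without overlap, while the values of Runx1 to Runx2 overlap between genotypes.

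Acan and Comp, the cartilage matrix genes among the lineage genes, had at most 17 reads in any library. Acan encodes aggrecan, the large proteoglycan that gives cartilage its stiffness. Acan (ENSMUSG00000030607, plus strand of chromosome 7, 86198369 to 86259985) had 10, 7 and 4 reads in Rnf40+/+ and 1, 6 and 7 in Rnf40-/- libraries. Its groups overlap and it was not tested, and with every gene kept it did not pass (adjusted p = 0.474 from limma). Comp, a pentameric member of the thrombospondin family that binds collagen fibrils, is ENSMUSG00000031849 on the plus strand of chromosome 8 (72897447 to 72905964). It had 7, 17 and 5 reads in Rnf40+/+ and 10, 12 and 15 in Rnf40-/- libraries. The log2 fold change was 0.47 with a 95% interval from -0.64 to 1.59 (adjusted p = 0.472 from limma), so a difference of 2-fold in the upward direction is within the interval. Without Rnf40+/+ replicate 2 it was 0.95 and without Rnf40+/+ replicate 3 it was 0.01, and it passed in neither.

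Relatives of these genes were partly measurable. Thbs4 had at most 11 reads in a library and was not tested, and the aggrecan relatives Bcan and Ncan were tested and did not pass. Each of the 3 thrombospondins tested was lower: Thbs3 fell from 1121 ± 155 to 372 ± 9.12 normalized counts (log2 fold change -1.58), Thbs1 from 269790.0 ± 22640 to 158926 ± 5799 (-0.76) and Thbs2 from 16827 ± 1879 to 10144 ± 469 (-0.73), all SD with n = 3 and an adjusted p of 0.000137 or less from limma. Vcan, the versican proteoglycan of the aggrecan family, fell from 5538 ± 256 to 3347 ± 283 (log2 fold change -0.73, adjusted p = 8.98e-06 from limma). Of the enzymes that cut aggrecan, Adamts4 fell by 0.59 in log2 units (limma, adjusted p = 0.00198). Adamts5 was at 0.19 (adjusted p = 0.048 from limma) and lost its call under 5 of the 6 fits without 1 library, all but the fit without Rnf40+/+ replicate 2 (adjusted p from 0.0738 to 0.171).

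Other cartilage genes moved in both directions. Of 19 matrix genes found, 10 were tested, of which 4 rose, 2 fell and 4 did not pass. Of the 4 that rose, Epyc, Col9a2 and Hapln1 reached the number of reads needed for the test through the Rnf40-/- libraries alone and so had to be higher there to be tested. Col2a1, the main collagen of cartilage, had 1213, 1067 and 894 normalized counts in Rnf40+/+ and 283, 368 and 369 in Rnf40-/- libraries, with log2 fold change -1.63 ± 0.13 (SE) and an adjusted p of 1.23e-06 by limma. Col11a2, which builds the same fibrils, fell by 0.75 in log2 units (limma, adjusted p = 0.00315). Prg4, which encodes the joint lubricant lubricin, had 95.5, 134 and 114 normalized counts in Rnf40+/+ and 1518, 1489 and 1366 in Rnf40-/- libraries. That is a 12.7-fold difference in the means and, with log2 fold change 3.67 ± 0.12 (SE) and an adjusted p of 2.5e-09 by limma.

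Epyc, Col9a2 and Hapln1 had few reads and passed the filter through the Rnf40-/- libraries alone. Their p values thus add no support for a rise. Epyc, a small proteoglycan of growth cartilage, went from 5.90 ± 2.21 to 38.8 ± 3.62 normalized counts (SD, n = 3 each, log2 fold change 2.58, adjusted p = 0.000151 from limma, and 1.62 with a pseudocount of 10). Col9a2, a collagen that coats cartilage fibrils, had 0, 0 and 9 reads in Rnf40+/+ and 19, 11 and 28 in Rnf40-/- libraries, and its log2 fold change of 3.24 (adjusted p = 0.00559 from limma) lay between 1.25 and 5.44 with other pseudocounts. Hapln1, the link protein that fixes aggrecan to hyaluronan, is named after its values were seen, and rose (5.32 ± 3.35 against 27.4 ± 5.55 normalized counts, SD, n = 3 each, log2 fold change 2.27, adjusted p = 0.00136 from limma, and 1.30 with a pseudocount of 10). Col10a1, the collagen of hypertrophic chondrocytes, had 410 ± 45.2 and 453 ± 73.7 normalized counts and did not pass (0.14, adjusted p = 0.396 from limma).

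Among the chondrocyte transcription factors Sox9 had 425, 332 and 331 normalized counts in Rnf40+/+ and 208, 204 and 188 in Rnf40-/- libraries, with log2 fold change -0.85 ± 0.12 (SE) and an adjusted p of 0.000156 by limma. Sox6, which works beside SOX9, had 35.8, 37.7 and 31.9 in Rnf40+/+ and 102, 60.5 and 72.7 in Rnf40-/- libraries, with log2 fold change 1.10 ± 0.24 (SE) and an adjusted p of 0.00242 by limma. Sox9 and Sox6 thus changed in opposite directions. Mef2c, a factor of hypertrophic chondrocytes, was at -0.62 (adjusted p = 0.0187 from limma), and its call was lost without Rnf40+/+ replicate 1 (-0.37, adjusted p = 0.0615 from limma) or Rnf40-/- replicate 1 (-0.57, adjusted p = 0.0621 from limma). Of the cartilage signals, Fgfr3 was tested and did not pass (0.11, adjusted p = 0.571 from limma).

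Of 10 other osteoblast genes 6 were tested, and 5 fell and 1 rose. Col1a2, a chain of type I collagen, had 107178, 113121 and 128919 normalized counts in Rnf40+/+ and 24175, 23758 and 24565 in Rnf40-/- libraries, with log2 fold change -2.26 ± 0.09 (SE) and an adjusted p of 7.63e-09 by limma. Pth1r, the receptor of parathyroid hormone, fell by 1.45 (adjusted p = 0.00102 from limma), and Cdh11, the cadherin first found in osteoblasts, by 0.89 (adjusted p = 6.88e-07 from limma) on the log2 scale. Col1a1 and Sparc, named after their values were seen, fell by 0.80 and 0.55. Omd, a keratan sulfate proteoglycan of bone, rose and had means of 79.5 ± 13.2 and 362 ± 32.4 normalized counts (SD, n = 3 each), with log2 fold change 2.18 ± 0.15 (SE) and an adjusted p of 4.67e-07 by limma. Bglap and Bglap2, nearly identical copies that share reads and encode osteocalcin, the late osteoblast marker, had too few reads to be tested.

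Over all 12 pathway lists, 54 of 78 genes found were tested, and 26 were lower and 9 higher, the latter with Epyc, Col9a2 and Hapln1 among them. Of all genes tested, 24.1% were called as lower and 23.3% as higher. The median log2 fold change of the pathway genes, also with these 3 among them, was -0.26, against -0.0035 over all genes tested. As the lists were chosen with earlier results of these data known, neither the counts nor this median supports a shift of the lists. Fibroblast genes moved as well in these cultures: 4 of 6 listed were lower, and their summed level was 149954 to 154944 normalized counts in Rnf40+/+ and 102827 to 110441 in Rnf40-/- libraries. Of 5 myofibroblast and smooth muscle genes all were lower, with a median log2 fold change of -2.38. Of 4 endothelial genes 3 rose, and the summed level of the 4 was 46.9 to 143 in Rnf40+/+ and 173 to 265 in Rnf40-/- libraries. Without Kdr, the most abundant of them, the sums overlapped, at 19.2 to 122 and 104 to 148 normalized counts. This overlap came from Tek in 1 library, at 114.6 in Rnf40+/+ replicate 1 against 11.2 and 16.0 in replicates 2 and 3. Pecam1 and Cdh5, 2 of the 3 that rose, passed the filter on reads through the Rnf40-/- libraries alone and had to be higher there to be tested. Of the adipocyte genes Fabp4 rose and Cebpa fell, with Adipoq at 0 in every library, and Myod1 of skeletal muscle was at 0 as well. Acta1, the 1 skeletal muscle gene of 5 that was tested, had 4449, 1905 and 1592 normalized counts in Rnf40+/+ and 453, 409 and 440.0 in Rnf40-/- MEFs (log2 fold change -2.45, adjusted p = 1.91e-05 from limma). The part of other cell types in the differences of the lineage genes was not tested.

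**Figure D4:**
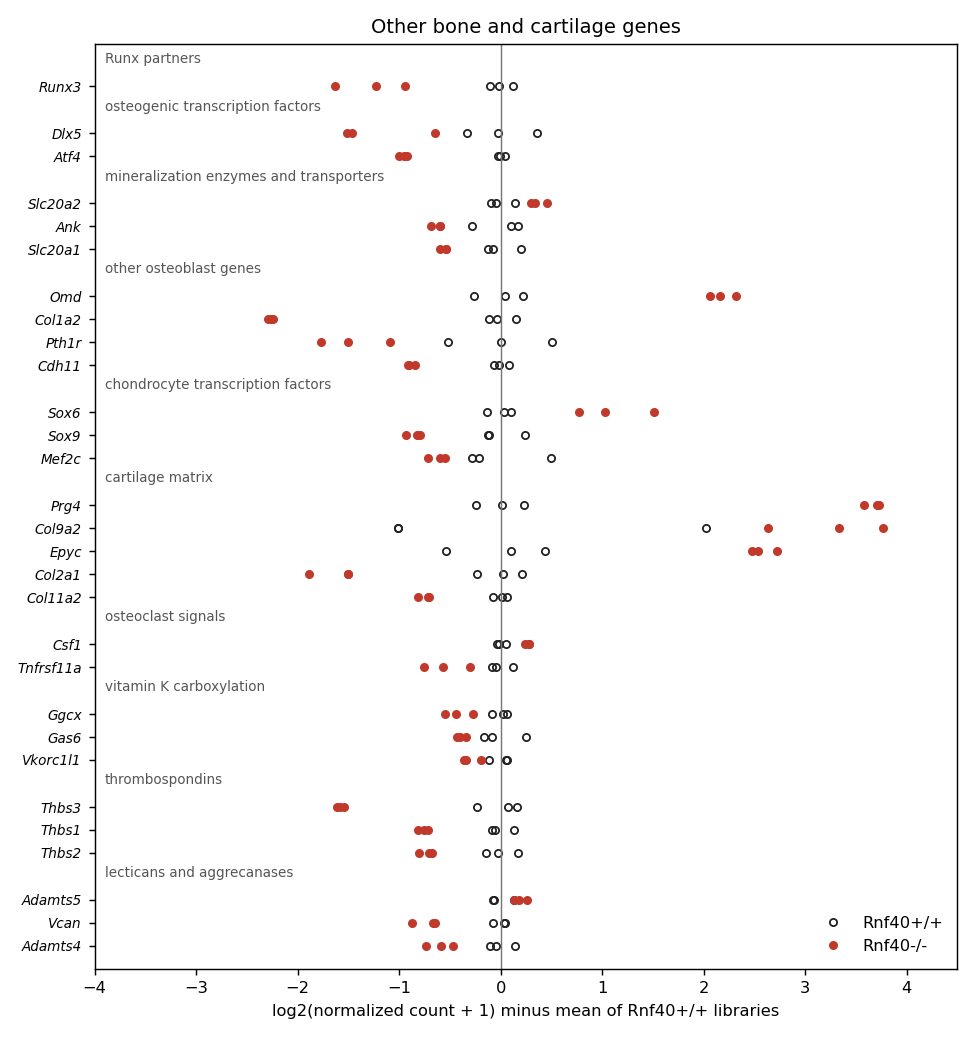
Each point is a library, placed by log2(normalized count + 1) minus the mean of the 3 Rnf40+/+ libraries, for the named genes of each list that are reported here. Prg4, Col9a2, Epyc, Omd and Sox6 lie to the right in Rnf40-/- libraries, while Col1a2, Col2a1, Thbs3, Pth1r and Runx3 lie farthest to the left.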

How the data were processed

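RNA-seq of 3 Rnf40+/+ and 3 Rnf40-/- MEF libraries was analysed from the deposited table of 29955 genes. The authors aligned reads to mouse transcripts of build mm9 and divided the reads per gene by a size factor per library with DESeq, so the deposited signal is a normalized count. The submitters' processing notes name Bowtie2 (version 2.1.0) and DESeq (version 1.14.0). All values above 0 (100% per library, tolerance 0.01) came out as whole numbers of reads once multiplied by the size factor, which gave back the reads. Size factors were 0.837 to 1.25. Within a genotype, libraries differed by more than sampling noise (chi-square per gene from 5.33 to 28.8), so none was a duplicate. Counting error alone limits genes near 3 reads.

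Low genes were removed on the recovered reads by filterByExpr (edgeR, version 4.0.16). The test was limma (version 3.58.1), with eBayes trend, of log2(normalized count + 1) on genotype, all 6 libraries and Benjamini-Hochberg adjustment; the added 1 understates changes of low genes. Intervals of 95% are unadjusted. Levels per length used recovered reads and merged exons of the GENCODE annotation of mm9, which may differ from the transcripts the authors used. Alternatives were scaling by DESeq2 (version 1.42.0) size factors, upper quartile or TMM, the DESeq2 Wald test, pseudocounts of 0.1 and 10, other gene filters, the criteria of the study, a replicate block and each library left out. The edgeR quasi-likelihood test was added after seeing the data. Tests were tried on simulated data. R (version 4.3.3), Python (version 3.11.15) and scipy (version 1.17.1) were used.

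The lineage genes and all lists were chosen with earlier results of these data known. From each list the up to 3 genes with the largest called change in each direction were named, beside the 10 lineage genes and Rnf40. Lect1 was read for the gene also called Cnmd, and Emr1 for Adgre1. Snorc had no row. The values of 1 listed gene are not reported here.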

Additional observations from a re-analysis of the deposited data

How the results depend on the processing

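The 7 lineage genes tested kept their direction and their side of the threshold in each of the 110 values recomputed under the alternatives that could be run for them. For Sp7, which passed the filter on reads through its Rnf40+/+ libraries alone, this adds no support. Across these, the log2 fold change ranged from -0.50 to -0.37 for Runx1, from -0.31 to -0.24 for Runx2, from 0.48 to 0.61 for Spp1, from -0.50 to -0.40 for Mgp, from -1.40 to -1.30 for Tnfrsf11b and from -3.85 to -1.06 for Sp7. Runx2 came closest to losing its call, with an adjusted p of up to 0.0437 from limma when a library was left out. Sp7 and Comp had no value where 10 reads in every library were required, since they did not reach it. With each library left out in turn, 5 lineage genes were lower and 1 was higher each time, and of the pathway genes 22 to 25 were lower and 8 to 9 higher. With the criteria of the study, applied to the limma values in place of the adjusted p, the numbers were 1 lower and 0 higher among the lineage genes. Among the pathway genes they were 6 lower and 5 higher. Those criteria set a minimum fold change and mean. No other alternative moved these 4 counts by over 1.5 times, and no scaling shifted the median of all genes by over 0.1. Vkorc1l1 lost its call under 14 of 16 alternatives, each other scaling included, and Adamts5 without a gene filter.

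Replicate numbers are shared between genotypes, but the labels do not say that a number marks a shared embryo or day. The deviations of same-numbered libraries from their group means correlated by 0.0118, 0.0174 and 0.0212, so the numbers were not taken as pairs, and libraries did not all correlate best with their own number. With a replicate block 5 lineage genes were lower and 1 higher, and 25 pathway genes were lower and 10 higher. Depth limits Alpl, Ibsp and Acan, for which a difference was not detectable with at most 10 reads in a library.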
